A study of Drosophila melanogaster with 13 samples.

Results

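On the autosomes, 400 binding sites of Dyak_Caf40, the Caf40 protein of D. yakuba, stood alone and carried no Zeus peak. They were found by ChIP-Seq, which sequences the chromatin that an antibody recovers together with a tagged protein, and a peak is a stretch where the recovered fragments pile up. The 400 sites were chosen by peak positions in the lists of 3 proteins. A site was taken when it was a distinct Dyak_Caf40 peak on 2L, 2R, 3L, 3R or chromosome 4, shared no base with a Dmel_Zeus or Dsim_Zeus peak, and lay at least 10 kb from every other Dyak_Caf40 peak. They made up 400 of 1581 autosomal Dyak_Caf40 peaks, 25.3% (95% Wilson interval 23.2 to 27.5), out of 3433 distinct peaks in the whole series. Of the other autosomal Dyak_Caf40 peaks, 911 had no Zeus peak but a neighbour closer than 10 kb, and are called clustered, while 270 shared at least 1 base with a Zeus peak. The clustered peaks had a median gap of 0.516 kb to the next Dyak_Caf40 peak (quartiles 0.172 and 2.037 kb). Whether neighbouring ones are parts of 1 broader site was not tested, and each was counted as 1 peak.

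Caf40 is a subunit of CCR4–NOT, the complex that shortens the poly(A) tails of messenger RNAs, and is found from yeast to animals. It is built of armadillo repeats, helical units that can hold other proteins or nucleic acids. Zeus arose from Caf40 by retroposition, in which a messenger RNA is copied back into the genome, and is expressed in the testis. A Caf40 protein from a species without Zeus stands here for the state before the duplication.

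All flies were adult D. melanogaster of the w1118 strain with a piggyBac transgene, in which the Actin5C promoter, active in most tissues, drove a coding sequence with a FLAG tag at its start. The transgenes carried Dyak_Caf40 (4 immunoprecipitated libraries and 1 input library), Dmel_Zeus (2 and 1) or Dsim_Zeus (4 and 1), and each immunoprecipitated replicate came from 150 whole flies, while the input was chromatin that received no antibody. The host kept its own untagged Caf40 and Zeus genes, and the replicates of a protein were technical ones, from 1 transgenic genotype each. Each protein has 1 peak list, with no value per library, so no value below can be set against the spread between replicates. The score, width and position of a peak come from the same peak calls that chose the sites, and for that reason all comparisons below are descriptions without a test. Shares carry 95% Wilson intervals and medians carry exact 95% intervals from order statistics, which treat peaks as independent and cover counting error only.

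The sites covered most of the score range of the Dyak_Caf40 list but were nearly absent among its highest peaks. The peak score, which ranks peaks within a list and has no stated scale, ranged from 2.55 to 226.4 with a median of 7.21 (95% interval 6.52 to 7.78). The clustered peaks had a median of 6.90 (6.60 to 7.28), so that the interval of the isolated peaks held the median of the clustered ones. Scores were also placed as percentiles of the 1867 Dyak_Caf40 peaks on the chromosome arms. The medians were 42.3 for isolated (quartiles 20.84 and 67.89) and 40.8 for clustered peaks. Both stood far below the 270 peaks shared with Zeus, whose median score was 107.2 (87.6 to 122). Most of this sharing was with Dmel_Zeus: 265 of its 269 autosomal peaks overlapped a Dyak_Caf40 peak, against 28 of 473 for Dsim_Zeus. The 144 shared peaks that were themselves at least 10 kb from other Dyak_Caf40 peaks had a median score of 119.1, so that shared peaks scored higher with the same spacing.

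**Figure D1:**
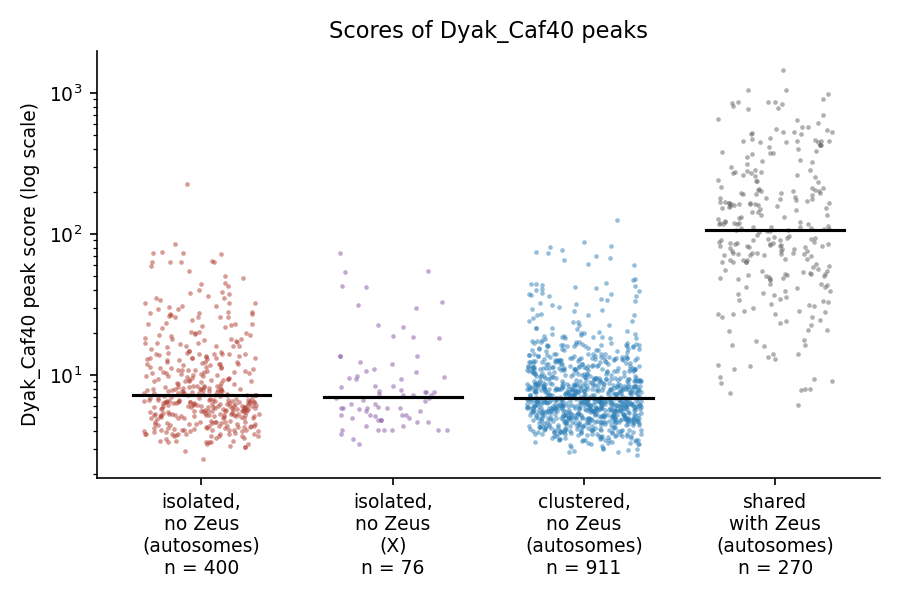
Scores of Dyak_Caf40 peaks on a log scale, 1 point per peak, for isolated autosomal peaks without Zeus (n = 400), isolated X peaks without Zeus (n = 76), clustered autosomal peaks without Zeus (n = 911) and autosomal peaks shared with Zeus (n = 270); horizontal lines are medians. The first 3 groups have medians of 7.21, 7.03 and 6.90, against 107.2 for shared peaks, and 1 isolated peak stands alone at 226.4.

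The isolated and clustered peaks differed more in their upper tails than in their middles. A score above 20 was held by 57 of 400 isolated peaks, 14.2% (11.2 to 18.0), against 57 of 911 clustered peaks, 6.26% (4.86 to 8.02). Above 50 the counts were 14 isolated peaks, 3.50% (2.10 to 5.79), and 12 clustered peaks, 1.32% (0.755 to 2.29). At the weak end, 21.2% (17.5 to 25.5) of isolated and 21.8% (19.3 to 24.6) of clustered peaks scored below 5.

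A rise towards high scores also appeared when the autosomal Dyak_Caf40 peaks were ordered by score and cut into 10 classes of nearly equal size. In class 1, the lowest, with scores up to 4.29, no peak was shared with Zeus and 55 of 159 were isolated, 34.6% (27.6 to 42.3). From class 2 to class 7, isolated peaks made up between 22.7% and 31.2% of the peaks without Zeus. These shares were lower than that of class 1, with intervals that overlapped it. In class 8 they made up 40.0% of these (32.3 to 48.3), and in class 9, with scores of 27.08 to 85.46, 37 of 75, or 49.3% (38.3 to 60.4). Across all classes, 144 of 270 peaks shared with Zeus also lay at least 10 kb from other Dyak_Caf40 peaks, 53.3% (47.4 to 59.2). Wide spacing was thus not particular to peaks without Zeus. In class 9, 83 of 158 peaks were shared with Zeus. In class 10, the highest, 155 of 158 were, and 1 isolated peak remained.

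**Figure D2:**
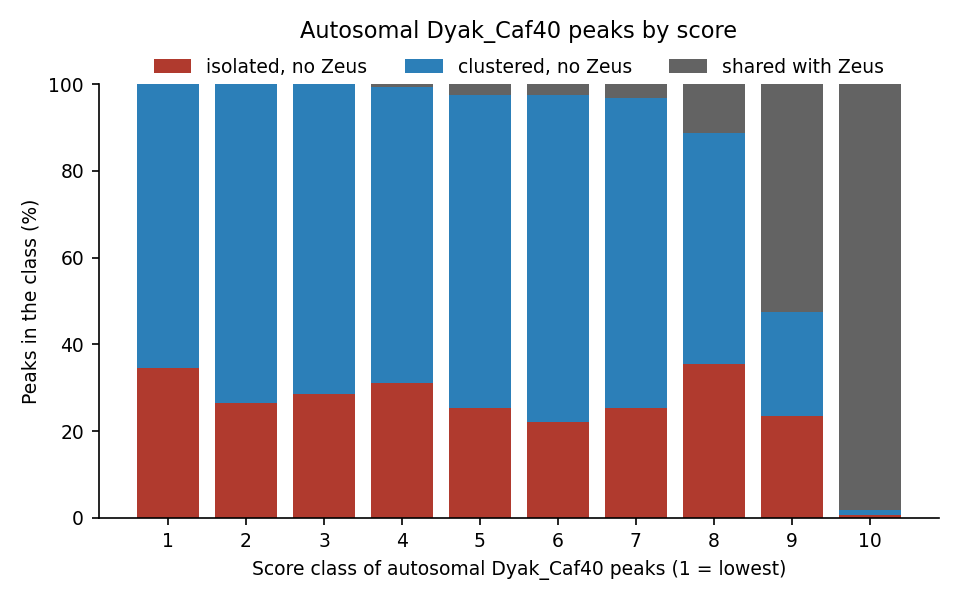
Share of isolated peaks without Zeus, clustered peaks without Zeus and peaks shared with Zeus (percent, stacked) in each of 10 score classes of the 1581 autosomal Dyak_Caf40 peaks. Isolated peaks hold 34.6% of class 1, 35.4% of class 8 and 0.633% of class 10, where shared peaks hold 98.1%.

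That peak, MACS_peak_189 on 2L at 7641638 to 7641992, had a score of 226.38 and rank 81 among the 1867 arm peaks. Each of the 80 peaks above it, 68 of them autosomal, overlapped a Zeus peak. Among the 100 highest-scoring arm peaks it was the single one without a Zeus peak. It was 355 bp wide, 190 kb from the next Dyak_Caf40 peak, 608 kb from the nearest Dmel_Zeus peak and 759 kb from the nearest Dsim_Zeus peak. No other isolated peak came near it, the next having a score of 84.37.

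The other 9 of the 10 highest-scoring isolated peaks had scores of 63.13 to 84.37 and ranks of 196 to 257. The second, MACS_peak_942, lay on 2R at 18009909 to 18010261 and was the strongest of that arm. The third, MACS_peak_1989 on 3R at 10549904 to 10550227, had a score of 74.63 and was 15.3 kb from the next Dyak_Caf40 peak, which was also isolated from Zeus and from other peaks. The strongest on 3L was MACS_peak_1113 at 347064 to 347407, with a score of 73.56, 30.5 kb from its neighbour. On chromosome 4 it was MACS_peak_2430 at 1020548 to 1021211, with a score of 72.75, and this peak was 664 bp wide and stood 26.5 kb from the nearest Dmel_Zeus peak. The remaining ones were MACS_peak_1463 and MACS_peak_1606 on 3L, MACS_peak_2057 on 3R, and MACS_peak_828 and MACS_peak_720 on 2R, with scores of 63.13 to 71.69. All 5 autosomal arms thus held a strong isolated peak, and apart from the one on chromosome 4 these peaks were 263 to 355 bp wide.

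At the other end, the lowest score of any arm peak in the list, 2.55, belonged to an isolated peak, MACS_peak_1497 on 3L at 17505883 to 17506134. The next lowest isolated peaks were MACS_peak_1464 on 3L at 15061228 to 15061486, with 2.89, and MACS_peak_246 on 2L at 11134325 to 11134537, with 3.08. These 3 had widths of 213 to 259 bp.

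The isolated peaks were narrow, with a median width of 299.5 bp (95% interval 282 to 314), against 327 bp (315 to 339) for clustered and 416.5 bp (392 to 443) for shared peaks. The narrowest width in the lists, 200 bp, was found for 6 of 400 isolated peaks, 1.5% (0.689 to 3.23), and 29 of 911 clustered peaks, 3.18% (2.23 to 4.53). Only 14 isolated peaks were wider than 1000 bp, 3.50% (2.10 to 5.79), against 54 clustered peaks, 5.93% (4.57 to 7.65), and 36 shared peaks, 13.3% (9.79 to 17.9).

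No isolated peak both scored above 50 and was wider than 1000 bp. Each group held only 14 of 400 peaks, 3.50%, so the lack of overlap says little. The 14 with a score above 50 were 263 to 664 bp wide, while the 14 wider than 1000 bp had scores of 7.57 to 27.83. The median score of these wide peaks was 13.7, above the 7.21 of all 400. The widest was MACS_peak_2033 on 3R at 12276696 to 12278581, 1886 bp with a score of 11.88. It was followed by MACS_peak_1274 on 3L at 5639598 to 5641289, 1692 bp, and by MACS_peak_909, MACS_peak_845 and MACS_peak_597 on 2R, 1356 to 1444 bp wide, with scores of 8.72 to 17.91. Across the 400 isolated peaks, which share their libraries and their peak calls, Spearman's rho between score and width was 0.241, against 0.415 across the 911 clustered peaks.

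**Figure D3:**
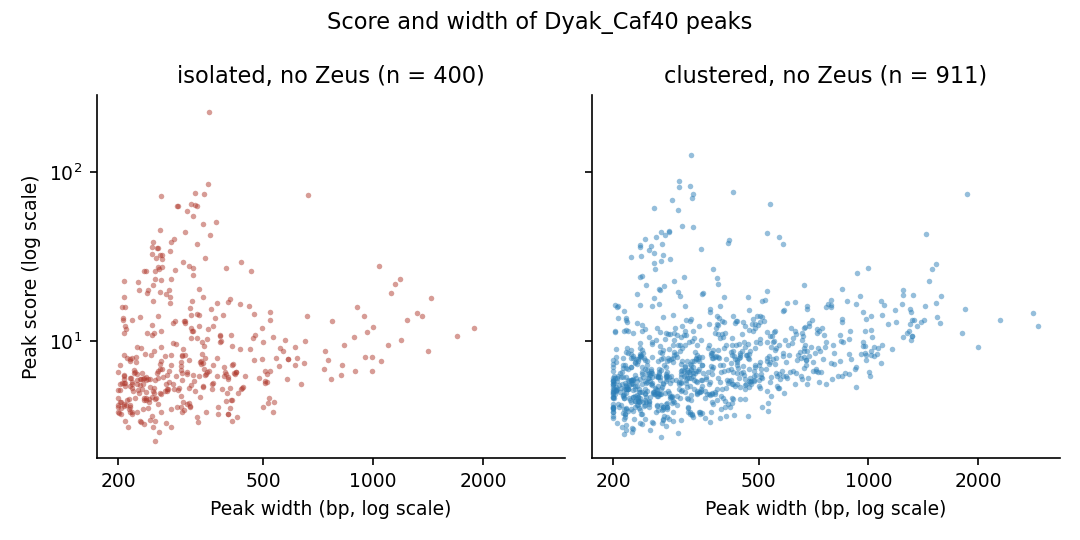
Score against width (bp) of Dyak_Caf40 peaks without Zeus, both on log scales, 1 point per peak; isolated peaks (n = 400) on the left and clustered peaks (n = 911) on the right. Isolated peaks above a score of 50 lie between 263 and 664 bp, and those wider than 1000 bp lie between scores of 7.57 and 27.83.

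Some lines of the list repeat the same peak, and each peak was counted once here. Of the isolated peaks, 18 stood on more than 1 line, 4.50% (2.87 to 7.0), against 64 clustered peaks, 7.03% (5.54 to 8.87). The 18 repeated isolated peaks had a median width of 655 bp, and the 382 others 297 bp, with median scores of 7.21 and 7.17. The repeated peaks were thus wider, with nearly the same median score.

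The distances that set these peaks apart varied widely. The gap to the next Dyak_Caf40 peak had a median of 36.7 kb and reached 425.8 kb. It was 10 to 20 kb for 113 peaks, 20 to 50 kb for 139, 50 to 100 kb for 80 and more for 68. The farthest from any other was MACS_peak_1395 on 3L at 10278039 to 10278279, with a score of 19.92, and the next were MACS_peak_391 on 2L (372 kb), MACS_peak_1812 (360 kb), MACS_peak_1784 (328 kb) and MACS_peak_1904 (278 kb), all 3 on 3R. Scores varied little with the gap: peaks 10 to 20 kb from a neighbour had a median score of 6.47 and those at 100 kb or more 7.54, and rho between score and gap was 0.0662 across the 400.

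The peaks closest to the 10 kb limit were weak on both sides of it, with 1 exception just outside. Just inside it were MACS_peak_1839 on 3R (gap 10114 bp, score 5.77), MACS_peak_109 on 2L (10131 bp, 5.19) and MACS_peak_2431 on chromosome 4 (10254 bp, 4.08). Just outside it were MACS_peak_2302 on 3R (9898 bp, 4.93), MACS_peak_423 on 2L (9879 bp, 5.89) and MACS_peak_1427 on 3L (9783 bp, 36.41).

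The next Dyak_Caf40 peak was itself an isolated peak without Zeus for 185 of the 400, 46.2% (41.4 to 51.1). It was a clustered peak for 127, 31.8% (27.4 to 36.5), and a peak shared with Zeus for 88, 22% (18.2 to 26.3). Among all 1581 autosomal Dyak_Caf40 peaks, 400 were isolated without Zeus (25.3%), 911 clustered and 270 shared. The spacing rule bears on the neighbour shares, since only the outer peaks of a cluster can lie next to an isolated peak. Whether isolated peaks group together was not tested. Followed along the list, the 400 peaks fell into 218 unbroken runs, of which 114 held a single peak and the longest held 9. The median scores of isolated peaks next to an isolated, a clustered and a shared peak were 6.85, 7.21 and 6.97.

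Zeus peaks were seldom close. The nearest Dmel_Zeus peak lay at a median of 131.9 kb from an isolated peak and 84.2 kb from a clustered one. No isolated peak had one under 10 kb away, against 183 of 911 clustered peaks, 20.1% (17.6 to 22.8). Because 265 of 269 autosomal Dmel_Zeus peaks overlapped a Dyak_Caf40 peak, the 10 kb rule by itself keeps most Dmel_Zeus peaks at that distance from isolated peaks. The closest isolated peaks were MACS_peak_2431 on chromosome 4 at 1037217 to 1037416 (10263 bp) and MACS_peak_628 on 2R at 4804161 to 4804494 (10995 bp), then MACS_peak_1464 on 3L, MACS_peak_2103 on 3R and MACS_peak_2422 on chromosome 4, at 11037 to 12665 bp. In all 5 the next Dyak_Caf40 peak was one shared with Zeus.

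Dsim_Zeus peaks, of which 28 of 473 on the autosomes overlapped a Dyak_Caf40 peak, came closer in a few places. They lay at a median of 182.1 kb from the isolated peaks and 233.5 kb from the clustered ones. Within 20 kb there was a Dsim_Zeus peak for 40 of 400 isolated peaks, 10% (7.43 to 13.3), and for 51 of 911 clustered peaks, 5.60% (4.28 to 7.29). Within 2 kb the shares were 1.5% (0.689 to 3.23) and 1.43% (0.836 to 2.43). The nearest, 365 bp away, was beside MACS_peak_1787 on 3R at 2242336 to 2242695, and the next beside MACS_peak_1612 on 3L (744 bp), MACS_peak_473 on 2L (1113 bp), and MACS_peak_906 and MACS_peak_865 on 2R (1220 and 1238 bp). These 5 had scores of 5.96 to 15.35. On the large arms, isolated peaks were also more frequent within 1 Mb of the centromere end than clustered ones, 6.92% against 3.85%. Whether the difference in Dsim_Zeus peaks within 20 kb depends on this position was not tested.

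**Figure D4:**
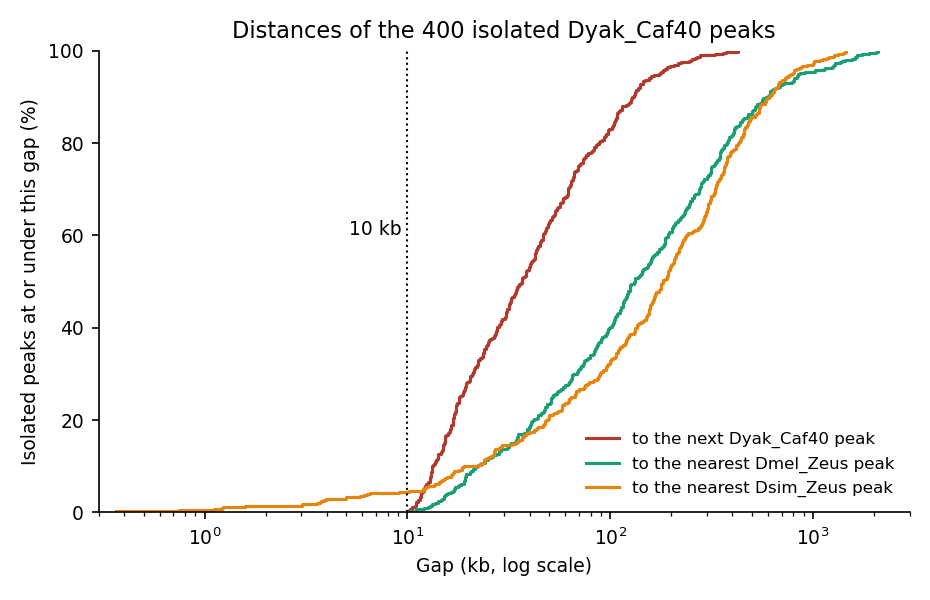
Cumulative share (percent) of the 400 isolated Dyak_Caf40 peaks against the gap in kb (log scale) to the next Dyak_Caf40 peak, the nearest Dmel_Zeus peak and the nearest Dsim_Zeus peak; the dotted line marks 10 kb. Medians are 36.7, 131.9 and 182.1 kb, and only the Dsim_Zeus line begins below 10 kb, with 18 of 400 peaks.

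The large arms held isolated peaks at similar rates. There were 89 on 2L, 95 on 2R, 95 on 3L and 111 on 3R, between 3.87 and 4.53 per Mb, and the arms of chromosome 3 together held 51.5% (46.6 to 56.4). Isolated peaks made up 27.9% of Dyak_Caf40 peaks on 2L (23.3 to 33.1), 25.5% on 2R (21.3 to 30.1), 24.2% on 3L (20.3 to 28.7) and 25.5% on 3R (21.6 to 29.8), so that the intervals overlapped. Median scores were 6.21 (5.45 to 6.85) on 2L, 7.92 (6.31 to 9.88) on 2R, 6.78 (6.19 to 7.93) on 3L and 7.83 (6.60 to 9.98) on 3R.

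Chromosome 4, the dot chromosome, is short and largely heterochromatic, and there the Dyak_Caf40 list was dense, with 46.0 peaks per Mb against 13.9 to 17.8 on the large arms. It held 10 isolated peaks, 7.42 per Mb, which were 16.1% (9.0 to 27.2) of its 62 Dyak_Caf40 peaks. Their scores were 4.08 at the lowest, 13.38 at the median (95% interval 6.18 to 37.31) and 72.75 at the highest, and 4 of 10 exceeded 20. On the large arms the median of 390 isolated peaks was 7.06 and 13.6% exceeded 20. The interval of the chromosome 4 median overlapped those of all 4 large arms.

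Along the large arms the isolated peaks were spread more evenly than the clustered ones, a result that the spacing rule favours. In the 20 windows of 1 Mb from the centromere end that all 4 large arms reach, their summed number was 11 to 27, with a median of 16. For clustered peaks it was 14 to 76, with a median of 29. The window next to the centromere held the most isolated peaks, 27 of 390, 6.92% (4.80 to 9.89), against 34 of 883 clustered peaks, 3.85% (2.77 to 5.33), and 29 of 246 shared peaks, 11.8% (8.33 to 16.4). Of those 27, 9 lay on 2R and 10 on 3R, above the whole-arm rates of 4.53 and 3.98 per Mb. On 2L and 3L there were 4 each, near the whole-arm rates of 3.87 and 3.88 per Mb. Together the 27 had a median score of 10.54, and the 363 farther out 6.85.

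On the X chromosome, which the selection left out, the same spacing and overlap limits gave 76 of 219 peaks without Zeus, 34.7% (28.7 to 41.2), against 400 of 1311 on the autosomes, 30.5% (28.1 to 33.1). The autosomal and X peaks so chosen had median scores of 7.21 (6.52 to 7.78) and 7.03 (5.85 to 8.29), and median widths of 299.5 and 297.5 bp. A score above 20 was found for 14.2% (11.2 to 18.0) of the autosomal and 13.2% (7.31 to 22.6) of the X peaks. The highest X score was 73.05, below that of the 4 strongest autosomal peaks.

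The peak names bear on how isolated these sites were. Names end in a number that rises in order of position through the whole list, up to 2844, while the list holds 1964 distinct peaks, so that 880 numbers are skipped. The methods kept only peaks found in both of the chosen replicates. Whether a skipped number stands for a peak that was seen and not kept was not tested, and where it would have lain between its neighbours is unknown. Of the 400 isolated peaks, 254 had at least 1 skipped number between them and a listed neighbour, 63.5% (58.7 to 68.1), against 298 of 911 clustered peaks, 32.7% (29.7 to 35.8). With the same spacing, it was 86 of 144 autosomal peaks shared with Zeus, 59.7% (51.6 to 67.4). On the X it was 38 of 76 such peaks without Zeus, 50% (39 to 61). The stretches beside isolated peaks are longer, and over the stretch between both neighbours the list skipped 6.4 numbers per Mb for isolated and 7.92 for clustered peaks. Over the 4 large arms as a whole it skipped 6.62 per Mb.

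For 146 isolated peaks, 36.5% (31.9 to 41.3), the numbers ran on without a break on both sides. Their median score was 7.52 and their median width 298.5 bp, against 6.76 and 300 bp for the 254 others. The largest break on 1 side of an isolated peak was 12 numbers, beside MACS_peak_378 and MACS_peak_391, each with 14 over both sides. Of the 10 highest-scoring isolated peaks, 6 had no break, MACS_peak_189, MACS_peak_942, MACS_peak_1113, MACS_peak_2430, MACS_peak_1463 and MACS_peak_828.

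**Figure D5:**
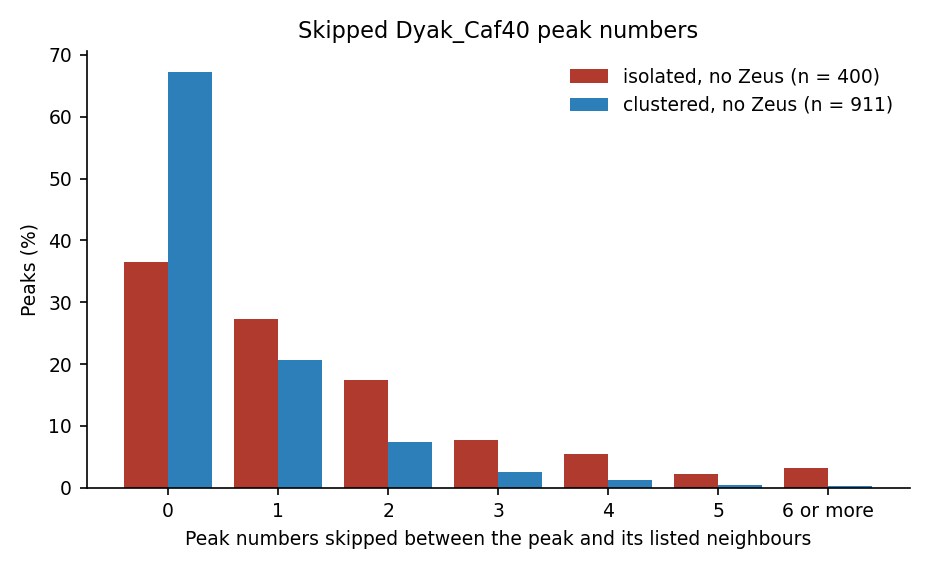
Share of peaks (percent) by how many peak numbers the list skips between the peak and its listed neighbours on both sides, for isolated (n = 400) and clustered (n = 911) autosomal Dyak_Caf40 peaks without Zeus. No number was skipped for 36.5% of isolated and 67.3% of clustered peaks.

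The numbering of the Zeus lists around the same sites was read in the same way. The Dmel_Zeus list skips 49 of 427 numbers. For 376 of the 400 isolated peaks, 94.0% (91.2 to 95.9), the Dmel_Zeus peaks listed on either side had consecutive numbers, so that no number was missing where the site lies. The clustered peaks gave 837 of 911, 91.9% (89.9 to 93.5). MACS_peak_189 was among the 376. The Dsim_Zeus list skips 6744 of 7835 numbers, and only 2 isolated peaks, 0.5% (0.137 to 1.80), lay between consecutive Dsim_Zeus numbers. Around these sites the numbering was thus nearly complete for Dmel_Zeus and sparse for Dsim_Zeus.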

How the data were processed

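Peaks were analysed as deposited by the authors, in 1 list per protein from 13 libraries (10 immunoprecipitated, 3 inputs). According to the methods of the study, BWA placed the reads on dm3, MACS2 called the peaks, and a peak had to be found in both members of the best replicate pair. The labels name the software CASAVA 1.4 and the mouse build mm9, while the sequence names of the lists are those of the fly. The score column was deposited by the authors without a scale. The other columns, start and end, were deposited as intervals, and positions are given on dm3 counted from 1. A list belongs to the protein whose line code bears its letter. The lists carry no read depth, and the read totals of the libraries were not used here.

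Repeated lines were counted once. Gaps are the bases between 2 intervals, and an overlap is at least 1 shared bp. Arm length was the highest peak end in any list. Calculations used Python 3.11.15, pandas 2.3.3, numpy 2.4.6 and scipy 1.17.1, and the interval code was tested on simulated data and against bedtools 2.31.1. The sites and the rule for naming them (the 10 highest scores, the 5 widest, the 5 farthest, the extremes by arm, by limit and by Zeus distance, and the 3 lowest scores) were chosen with earlier results of these data known. The count of skipped numbers was added after the lists were seen. A dm3 genome and annotation were not used here, so sequences, the CAZAM motif and genes were not analysed.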

Additional observations from a re-analysis of the deposited data

How the results depend on the processing

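The number of isolated sites, their median score percentile, median width, chromosome 3 share and score difference from clustered peaks were recomputed in 8 alternatives, and 37 of 40 values stayed within 1.5 times (counts) or within the interval of the value reported. Several alternatives kept 373 or more of the 400 sites, so that agreement in them was largely fixed in advance. The 3 values that moved were the count without skipped numbers, and the percentile and width in the higher-scoring 50%. A gap of at least 5 kb gave 496 sites and one of at least 20 kb 287. Asking a Zeus overlap to cover 50% or more of the shorter interval gave 400, and counting a Zeus peak within 1 kb as shared gave 398. In the higher-scoring 50% of each list 340 sites qualified, 165 of them among the 400, with a median percentile of 72.3, raised by the selection itself, and a median width of 342 bp, whose cause was not tested. Requiring no skipped number on either side, an alternative added after seeing the data, left 146 sites. The difference in median score percentile, isolated minus clustered, was 1.5. It ranged from 0.884 without 1 Mb next to the centromere to 4.10 in the higher-scoring 50%. The alternative without skipped numbers filtered only the isolated peaks and gave 3.83 against all 911 clustered ones. In the higher-scoring 50%, overlap with a lower-scoring Zeus peak no longer counted. Intervals used for the difference in median percentile, 2.22 to 6.16 in the higher-scoring 50%, hold the clustered median fixed. They leave out its error and are too narrow for a difference.

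No paired analysis was possible because no list gives values for single libraries, and leaving out each replicate was not run for the same reason. The planned comparisons of the CAZAM motif were not run without a dm3 genome. The lists carry no depth, and from them a missing Zeus peak and one below detection cannot be told apart.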

Other observations

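A subset of the sites was picked after their values were seen, by score and by unbroken numbering in the Dyak_Caf40 and Dmel_Zeus lists. Of the 400 isolated peaks, 138 had no skipped Dyak_Caf40 number on either side and no skipped Dmel_Zeus number around them. Of these, 22 also scored above 20, with scores of 22.28 to 226.38 and widths of 227 to 355 bp. The Dsim_Zeus list was not part of this choice, and it skipped 18 to 137 numbers around each of the 22, with 137 around MACS_peak_189. They lay on every autosomal arm, 7 on 2L, 5 on 2R, 4 on 3L, 4 on 3R and 2 on chromosome 4. The 7 strongest were MACS_peak_189, MACS_peak_942, MACS_peak_1113, MACS_peak_1463, MACS_peak_828, MACS_peak_2257 on 3R at 24425294 to 24425602 (score 58.89) and MACS_peak_188 on 2L at 7426496 to 7426756 (score 45.09). No test was made on this subset, since its members were selected on the values given.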
